A study of Rattus norvegicus with 12 samples.

Results

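The 3 circular RNAs novel_circ_0011248, novel_circ_0018079 and novel_circ_0035558 were described in the paraventricular nucleus (PVN) of the rat hypothalamus, from a table of 21914 circRNAs. They belong to the 44 node circRNAs of the study, the circRNAs placed in its circRNA-miRNA-mRNA network, and to the 16 of these listed as lowered by surgery. They were chosen by measured values: all 3 are listed at 0 in each of the 3 libraries of the hepatectomy group (HT) and lie higher in the normal control group (NC). Values of NC and HT are therefore given below as a description, without a test. The choice did not take in every such circRNA, since 9 of the 16 are at 0 in all HT libraries, and the 3 described here are those with the highest counts in NC.

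The 12 libraries came from male Sprague-Dawley rats in 4 groups of 3. NC rats had no operation. HT rats underwent partial hepatectomy under isoflurane, the removal of a piece of the left liver lobe. HT+EA rats had the same operation and electroacupuncture at the Zusanli and Sanyinjiao acupoints of the hind limb, before and after surgery. HT+SEA rats had the operation and needles at the same points without current. Rats of all groups were habituated to the restraint device, and NC and HT rats were restrained for as long as the needled groups. Tissue was taken the day after the last electroacupuncture. NC rats had neither anaesthesia for surgery nor needles, so operation and anaesthesia cannot be told apart here, and there was no unoperated group with electroacupuncture. The labels give the tissue as brain, and the table holds no linear transcripts, so the dissection could not be checked against PVN markers. Total counts ranged from 134903 in HT 3 to 360524 in HT+EA 2, and the libraries listed 8679 to 13945 circRNAs each. The lowest count above 0 in the whole table was 2, with no value of 1. A 0 means that a circRNA was not listed for that library. The rule for listing is not given, so a 0 sets no known upper limit on the level. The methods describe rats divided at random into the 4 groups, brains collected together, and brain samples that came from different animals of 1 batch. No source ties each library to its own animal, so the p-values below measure the spread between these samples. As bulk tissue was sequenced, fewer cells that make a circRNA and less of it per cell cannot be told apart.

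A circRNA forms when a splice donor is joined to a splice acceptor that lies upstream of it, which closes the RNA into a ring without free ends. It is counted from reads that cross this back-splice junction, a small part of all reads, and circRNAs are plentiful in the brain. Some circRNAs carry sites for microRNAs (miRNAs), short RNAs that recognise target mRNAs mainly through their seed, bases 2 to 8. A circRNA that holds a miRNA away from its mRNA targets is called a competing endogenous RNA, and the network was built on that idea. The PVN holds the neurons that release corticotropin-releasing hormone and so drive the hypothalamic-pituitary-adrenal axis during stress such as surgery.

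The network ties the 3 circRNAs to 6 miRNAs, of which 5 have a mature sequence in RefSeq (rat assembly GRCr8). These are shown because they are the molecular link that the network draws between the circRNAs and mRNAs. Each is written 5′ to 3′ with the seed in capitals, and the 5 seeds all differ.
rno-miR-204-3p: gCUGGGAAggcaaagggacguu
rno-miR-31a-5p: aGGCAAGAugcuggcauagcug
rno-miR-331-3p: gCCCCUGGgccuauccuagaa
rno-miR-3084a-3p: uUCUGCCAguccccuucagaca
rno-miR-3587: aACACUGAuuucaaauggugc

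rno-miR-204-3p is the only miRNA of the 6 tied to all 3 circRNAs. Its mature sequence lies at chr1:229743532-229743553 on the plus strand, within the bounds of Trpm3, which encodes a cation channel of sensory neurons. novel_circ_0011248 is also tied to rno-miR-31a-5p (chr5:108714906-108714927, minus strand, within no protein-coding gene), to rno-miR-331-3p (chr7:30414401-30414421, minus strand, within the bounds of Vezt) and to novel_854, for which no sequence was used here. novel_circ_0035558 is also tied to rno-miR-3084a-3p, which has 2 loci. The first is at chr6:93551127-93551148 on the minus strand, within the bounds of Klhdc2 and Nemf. The second is at chr19:55718541-55718562 on the minus strand, within the bounds of Sf3b3. novel_circ_0018079 is also tied to rno-miR-3587 (chr4:60618342-60618362, plus strand, within no protein-coding gene). The sequences, coordinates and host genes of the circRNAs themselves were not used here, so miRNA sites within them could not be looked for.

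novel_circ_0011248 had the highest counts of the 3. It was listed with 105, 96 and 128 counts in NC 1 to 3, with 0 in each HT library, with 76, 0 and 84 in HT+EA 1 to 3, and with 141, 96 and 128 in HT+SEA 1 to 3. In CPM, here counts scaled by TMM to libraries of equal size over the circRNAs tested, this was 532, 483 and 581 in NC, 406, 0 and 444 in HT+EA, and 639, 611 and 754 in HT+SEA. The mean was 532 ± 49.1 CPM in NC and 668 ± 75.8 in HT+SEA (SD, n = 3 each). All 3 HT+SEA libraries lay above every NC library, and both HT+EA libraries that list it lay below every NC library. In HT+EA the mean of 284 ± 246 CPM (SD, n = 3) stands for no single library, since replicate 2 was at 0 and the other two averaged 425. The 95% Clopper-Pearson interval, which covers counting error only, ran from 59.9 to 95.1 counts for the 76 of HT+EA 1 and from 119 to 166 for the 141 of HT+SEA 1.

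novel_circ_0018079 was listed in every NC library, with 38, 36 and 26 counts, and in 2 of the 9 operated libraries. These were HT+EA 2 with 44 counts and HT+SEA 1 with 31 counts. The values were 192, 181 and 118 CPM in NC (mean 164 ± 40.1, SD, n = 3), 143 CPM in HT+EA 2 and 141 CPM in HT+SEA 1. Both operated libraries that list it fell within the NC range, and the other 7 operated libraries were at 0. The group means were 47.8 ± 82.8 CPM in HT+EA and 46.9 ± 81.2 CPM in HT+SEA (SD, n = 3 each), each carried by 1 library.

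novel_circ_0035558 was listed with 38, 48 and 42 counts in NC, or 192, 242 and 191 CPM (mean 208 ± 28.9, SD, n = 3). Among operated libraries it was listed in HT+EA 2 with 68 counts and HT+EA 3 with 36 counts, or 222 and 190 CPM. HT+EA 1, all HT and all HT+SEA libraries were at 0. The mean of the HT+EA libraries that list it, 206 CPM, was close to the NC mean, while the mean over all 3 was 137 ± 120 CPM (SD, n = 3). It was the only one of the 3 circRNAs at 0 in all HT+SEA libraries.

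**Figure D1:**
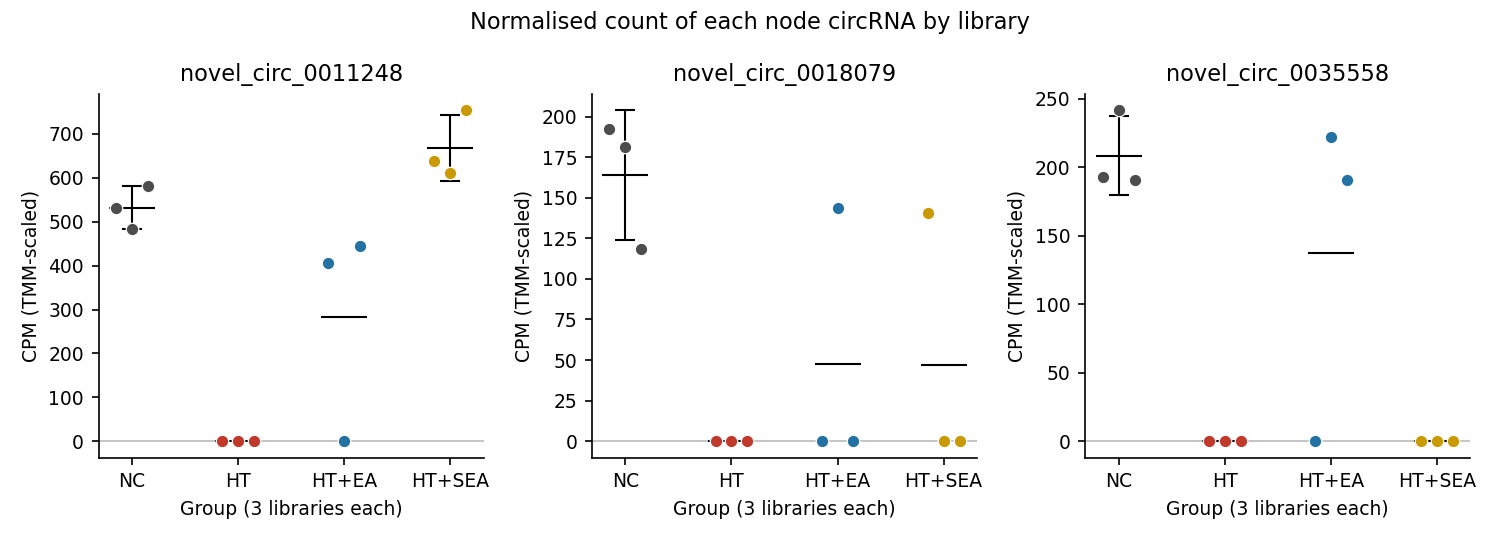
Normalised count (CPM, TMM-scaled) of each circRNA in the 12 libraries by group, 1 point per library; bars are group means, with ± SD drawn where all 3 libraries list the circRNA. HT is at 0 throughout, novel_circ_0011248 lies above NC in HT+SEA, and operated groups with a value above 0 in some libraries often hold a 0 beside it.

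Where listed, the circRNAs spanned ranges of 1.27-fold to 1.86-fold between libraries. novel_circ_0011248 ran from 406 to 754 CPM over 8 libraries, a 1.86-fold range with a coefficient of variation of 20.5%. novel_circ_0018079 ran from 118 to 192 CPM over 5 libraries (1.63-fold, 19.8%), and novel_circ_0035558 from 190 to 242 CPM over 5 libraries (1.27-fold, 11.2%). The lowest listed counts were 76, 26 and 36 for novel_circ_0011248, novel_circ_0018079 and novel_circ_0035558, while the lowest count above 0 in the whole table was 2. For novel_circ_0018079 and novel_circ_0035558 the listed values of the needled groups lay within or next to the NC range, and their group means differed mainly by how many libraries list them. For novel_circ_0011248 the listed level differed too: it averaged 425 CPM in the HT+EA libraries that list it, 532 in NC and 668 in HT+SEA.

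The 0s stood beside sizeable expected counts. At the mean NC share of the total, novel_circ_0011248 would have 84.1, 114 and 61.8 counts in HT 1 to 3 and 165 in HT+EA 2. novel_circ_0018079 would have between 19.1 and 35.1 counts in the 7 libraries where it was at 0. novel_circ_0035558 would have between 24.2 and 46.3 counts in its 7. Summed over the 3 HT libraries, the expected counts were 259, 80.2 and 102 for novel_circ_0011248, novel_circ_0018079 and novel_circ_0035558. The 0s stood differently to library size in the 3 circRNAs. novel_circ_0018079 was listed in 5 of the 6 larger libraries (totals of at least 225551, all 3 NC libraries among them) and in 0 of the 6 smaller ones (totals of at most 216431). novel_circ_0035558 was listed in 4 of the 6 larger and 1 of the 6 smaller libraries, and in none with a total below 216431. novel_circ_0011248 was listed in 4 of each. HT+EA 2, the largest library, was at 0 for novel_circ_0011248, and HT+SEA 2, with a total of 177533, listed it with 96 counts. HT 2, one of the 6 larger libraries with a total of 247720, was at 0 for all 3. The part of library size in the 0s was not tested.

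**Figure D2:**
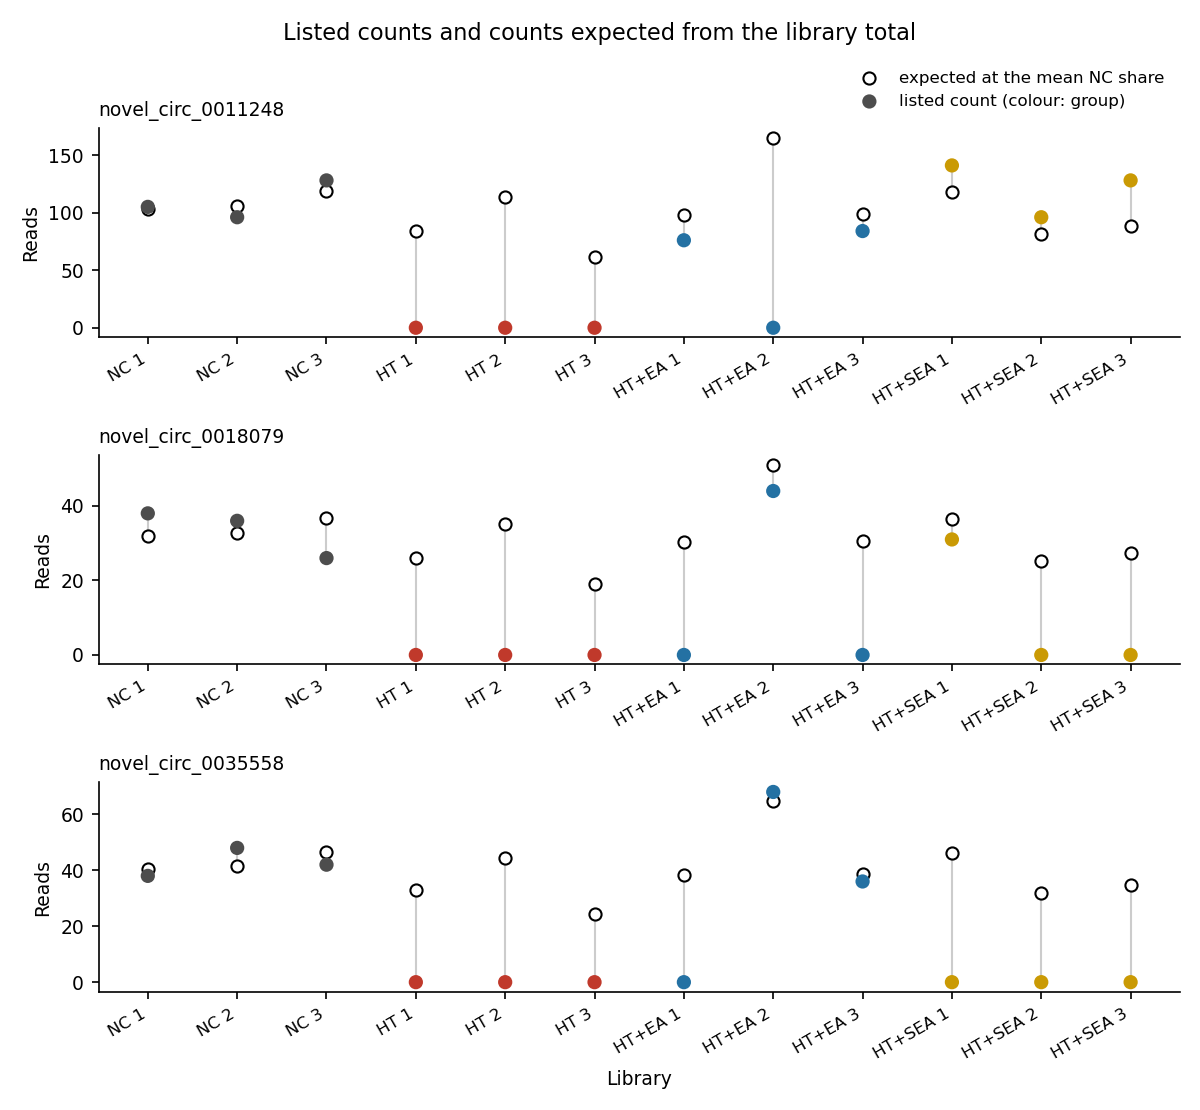
Reads listed for each circRNA in each library (filled points, coloured by group) and reads expected at the mean NC share of the library total (open points). Points above 0 lie closer to the expected ones than to 0. For novel_circ_0011248 some departed from them, with 128 against 88.3 expected in HT+SEA 3 and 76 against 98.3 in HT+EA 1.

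The 3 circRNAs were at 0 in different operated libraries. Every NC library listed all 3 and every HT library none. HT+EA 1 listed novel_circ_0011248 alone, HT+EA 2 listed novel_circ_0018079 and novel_circ_0035558, and HT+EA 3 listed novel_circ_0011248 and novel_circ_0035558. HT+SEA 1 listed novel_circ_0011248 and novel_circ_0018079, and HT+SEA 2 and 3 listed novel_circ_0011248 alone. No operated library listed all 3. The shared pattern was thus that of NC and HT, which the choice used, and did not extend to the needled groups.

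Circular RNAs at this level were seldom missing from a library. Of 2180 circRNAs with a mean of at least 20 counts in the libraries that list them, 1828 (83.9%) were listed in all 12 libraries. In all, 63 (2.89%) were listed in 8 or fewer, as novel_circ_0011248 was, and 44 (2.02%) in 5 or fewer, as novel_circ_0018079 and novel_circ_0035558 were. Of 2150 circRNAs listed in all NC libraries with a mean NC count of at least 20, 2054 (95.5%) had no 0 in HT, 88 (4.09%) had 1, 5 (0.233%) had 2 and 3 (0.140%) had 3. Those last 3 are the circRNAs described here. Since their HT values chose them, and the 3 HT libraries count among those that do not list them, neither share is a result about them. Their mean NC counts were 110, 42.7 and 33.3 for novel_circ_0011248, novel_circ_0035558 and novel_circ_0018079.

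**Figure D3:**
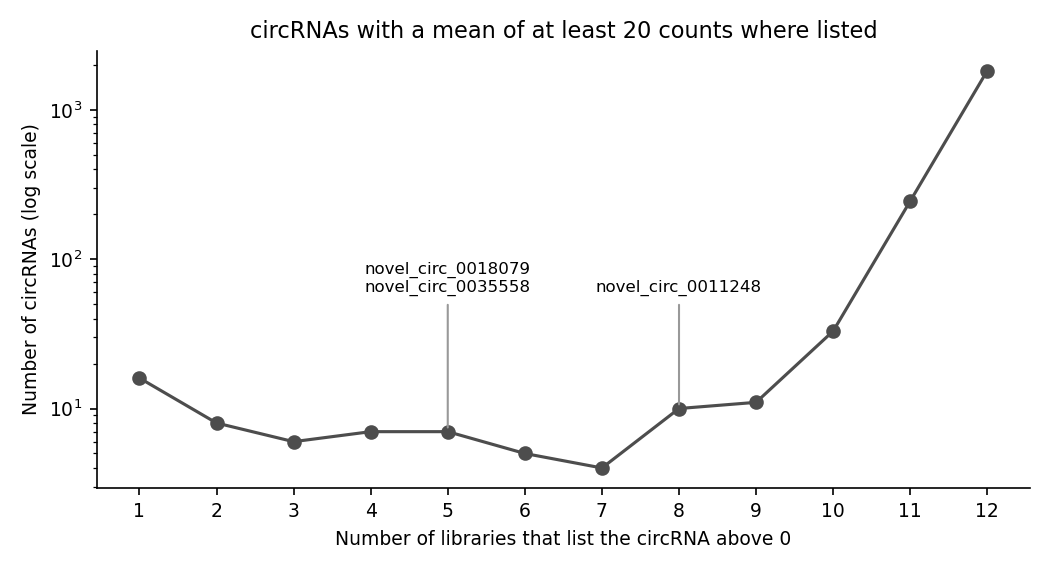
Number of circRNAs (log axis) by the number of libraries that list them, among the 2180 with a mean of at least 20 counts where listed. Most are listed in all 12 libraries, and the labels mark the bins with 8 and 5 libraries that hold the 3 circRNAs.

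The same count was made for the other groups. In all, 163 circRNAs were at 0 in every HT library and listed in every NC library, against 78 for HT+EA and 115 for HT+SEA. With a mean NC count of at least 20 there were 3, 0 and 2, and the 2 of HT+SEA were novel_circ_0016027 (mean NC count 51.3) and novel_circ_0035558. In the opposite direction 38 circRNAs were at 0 in NC and listed in every HT library, and their highest mean HT count was 5.33. HT 3 was the smallest library. Few circRNAs shared a member's exact set of listing libraries: 1 for novel_circ_0011248, 5 for novel_circ_0018079 and 2 for novel_circ_0035558, with mean counts where listed of at most 5. Exactly the opposite set, listed where the member was at 0 and at 0 where it was listed, was found for 1 circRNA with novel_circ_0011248, 1 with novel_circ_0018079 and 0 with novel_circ_0035558, with means where listed of at most 3.5 counts.

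The other 6 node circRNAs lowered by surgery and at 0 in all HT libraries had lower NC counts. novel_circ_0017802 had a mean NC count of 15.7 and was listed in 2 HT+EA and 2 HT+SEA libraries. novel_circ_0032515 had a mean NC count of 7.67, novel_circ_0030598 of 6.33, and novel_circ_0010173, novel_circ_0011413 and novel_circ_0035132 of 6 each. novel_circ_0010173 was listed in all 3 HT+EA and all 3 HT+SEA libraries. Just outside the rule, novel_circ_0014876 had 3, 0 and 0 counts in HT 1 to 3 (mean NC count 11.7) and novel_circ_0034585 had 0, 3 and 0 (mean NC count 9.67). The lists of node circRNAs were chosen in the study on these libraries, so they are not independent evidence of a direction.

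The comparison of HT+EA with HT+SEA asks what the current adds to needle insertion in operated rats. The 0s and NC values that marked out the 3 circRNAs came from neither group. Their place among the node circRNAs, however, rests in part on mRNAs that the study chose by opposite changes in HT and HT+EA. The comparison is therefore not free of that choice. The NC and HT libraries, whose counts marked out the 3, enter the fit through the filter and the estimate of the spread. With edgeR's quasi-likelihood test over 4838 circRNAs (all 12 libraries in 1 fit), 188 (3.89%) passed an unadjusted p of 0.05, 84 higher and 104 lower in HT+EA. After Benjamini-Hochberg adjustment 0 (0%) passed 0.05 and the smallest adjusted p was 0.99983. DESeq2 called 119 circRNAs unadjusted and 1 adjusted, and limma-voom 245 and 0. All 3 circRNAs were among those tested, 1 passed the unadjusted threshold and none passed after adjustment (adjusted p = 0.99983 for each), so no difference between HT+EA and HT+SEA is claimed for any of them. novel_circ_0018079 and novel_circ_0035558 were tested only because NC, where they are high, was in the fit: with the 6 compared libraries alone they did not pass the filter on low counts. That 1 of the 3 passed unadjusted is therefore no support for a difference. A two-sided exact permutation test of the mean CPM of each circRNA was run as well, and with 3 libraries against 3 it cannot go below 0.1.

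The circRNA that passed unadjusted was novel_circ_0035558, with 0, 68 and 36 counts in HT+EA against 0 in every HT+SEA library. No fold change is given, since a group at 0 in this table sets no lower limit. The groups met at 0 through HT+EA 1, and the exact permutation test gave p = 0.4. It did not pass unadjusted with limma-voom, while its adjusted p in edgeR was 0.0131 without HT+EA 1 and 6.65e-11 with no filter on low counts. The first leaves out the HT+EA library at 0. Both fits included the NC and HT libraries, whose values chose this circRNA, so no difference is read from either.

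By value, novel_circ_0011248 was lower in HT+EA, with a log2 fold change of -1.27 (SE 0.86). Both HT+EA libraries that list it, at 406 and 444 CPM, lay below all 3 HT+SEA libraries, at 639, 611 and 754 CPM. HT+EA 2 was at 0, which sets no upper limit, so its place is not known. The exact permutation test took that 0 as a value and gave p = 0.1, the smallest this design allows. Without HT+EA 2, the library at 0, the log2 fold change was -0.65, and with limma-voom over all libraries it was -4.11. The unadjusted threshold was passed in both, and the size of the difference varied with the fit. With no filter on low counts its adjusted p in edgeR was 0.0151. With the 6 compared libraries alone its unadjusted p in edgeR was 0.194. The other fits included the NC and HT libraries, whose values chose this circRNA, so no difference is read from them.

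For novel_circ_0018079 the log2 fold change was 0.07 (SE 1.34), with 1 library above 0 in each group, and the exact permutation test gave p = 1. The sign turned when HT+EA 2, the HT+EA library that lists it, was left out, and also without HT+SEA 2 or HT+SEA 3. No direction can be read for this circRNA.

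**Figure D4:**
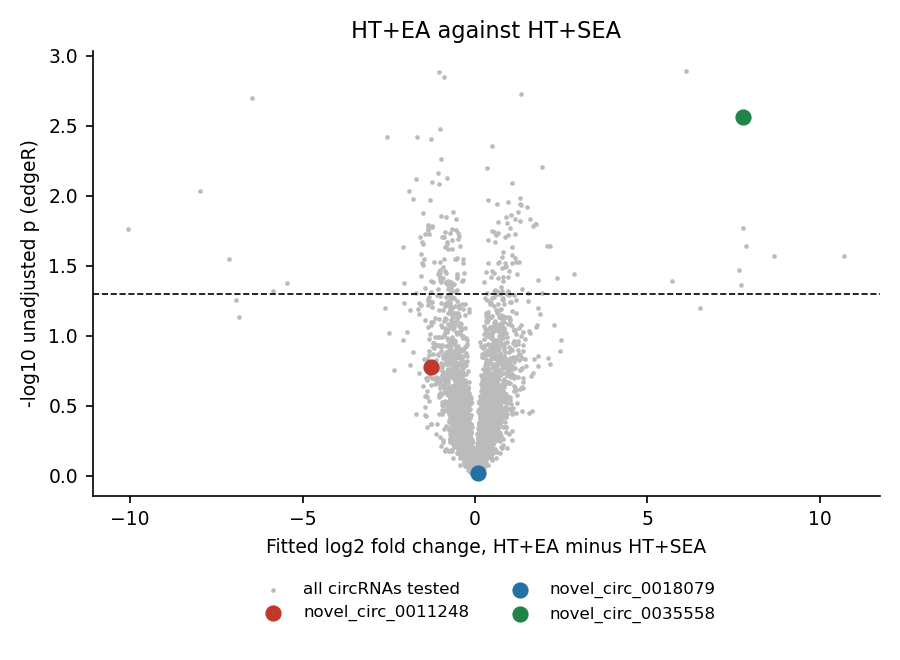
Fitted log2 fold change of HT+EA minus HT+SEA against -log10 of the unadjusted edgeR p for the 4838 circRNAs tested, with the 3 node circRNAs in colour and the dashed line at the unadjusted threshold of 0.05. novel_circ_0035558 lies above the line, and its position along the horizontal axis, like that of other points far from 0, depends on the prior count because a group is at 0.

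The lists around the 3 circRNAs were counted in the same fit. Of the other 13 node circRNAs lowered by surgery, 7 were tested and 0 passed unadjusted in either direction, with a median log2 fold change of -0.05 against 0.0033 over all circRNAs tested. Of all 41 other node circRNAs, 28 were tested, with 0 higher and 4 (14.3%) lower unadjusted, against 1.74% higher and 2.15% lower over all circRNAs tested, and a median of 0.02. The study chose both lists on these libraries, so these shares are no evidence of a direction. Besides the 3 described here, novel_circ_0030598 is the only node circRNA tied to rno-miR-204-3p. It had 9, 3 and 7 counts in NC, 0 in every HT library, 3, 4 and 4 in HT+EA and 0 in every HT+SEA library, and was too low to be tested. It was listed in every HT+EA library, whereas each of the other circRNAs tied to this miRNA was at 0 in at least 1.

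The circRNAs whose levels most resembled each member were taken by Pearson's r of log2 CPM over the 12 libraries. These are descriptions, since the points share the libraries and their depth. For novel_circ_0011248 they were novel_circ_0025451 (r = 0.907), novel_circ_0039383 (0.817) and novel_circ_0017379 (0.800). Over the 9 libraries without HT, whose 0s weigh on r, the values were 0.800, 0.796 and 0.771. novel_circ_0025451 was at 228 ± 27.1 CPM in NC, 122 ± 8.14 in HT, 161 ± 35.4 in HT+EA and 255 ± 47.7 in HT+SEA (SD, n = 3 each), the same order of groups as novel_circ_0011248 but with no library at 0.

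For novel_circ_0018079 they were novel_circ_0029383 (r = 0.870), novel_circ_0038449 (0.807) and novel_circ_0036718 (0.803). Over the 9 libraries without HT the values were 0.863, 0.771 and 0.801. novel_circ_0038449 is itself a node circRNA lowered by surgery and is tied to rno-miR-3084a-3p. It was at 166 ± 42.1 CPM in NC, close to the NC level of novel_circ_0018079, but at 51.6 ± 3.98 CPM in HT (SD, n = 3 each). For novel_circ_0035558 they were novel_circ_0008410 (r = 0.866), novel_circ_0030333 (0.852) and novel_circ_0033915 (0.847). Without HT these were 0.878, 0.810 and 0.805. novel_circ_0030333 was at 280 ± 21.1 CPM in NC and 264 ± 24.6 in HT+EA, against 206 ± 8.79 in HT and 210 ± 35.0 in HT+SEA (SD, n = 3 each). novel_circ_0008410 was at 78.2 ± 11.4, 50.1 ± 14.0, 39.7 ± 8.34 and 36.2 ± 5.94 CPM in NC, HT+EA, HT and HT+SEA. All 9 of these circRNAs were listed in all 12 libraries.

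**Figure D5:**
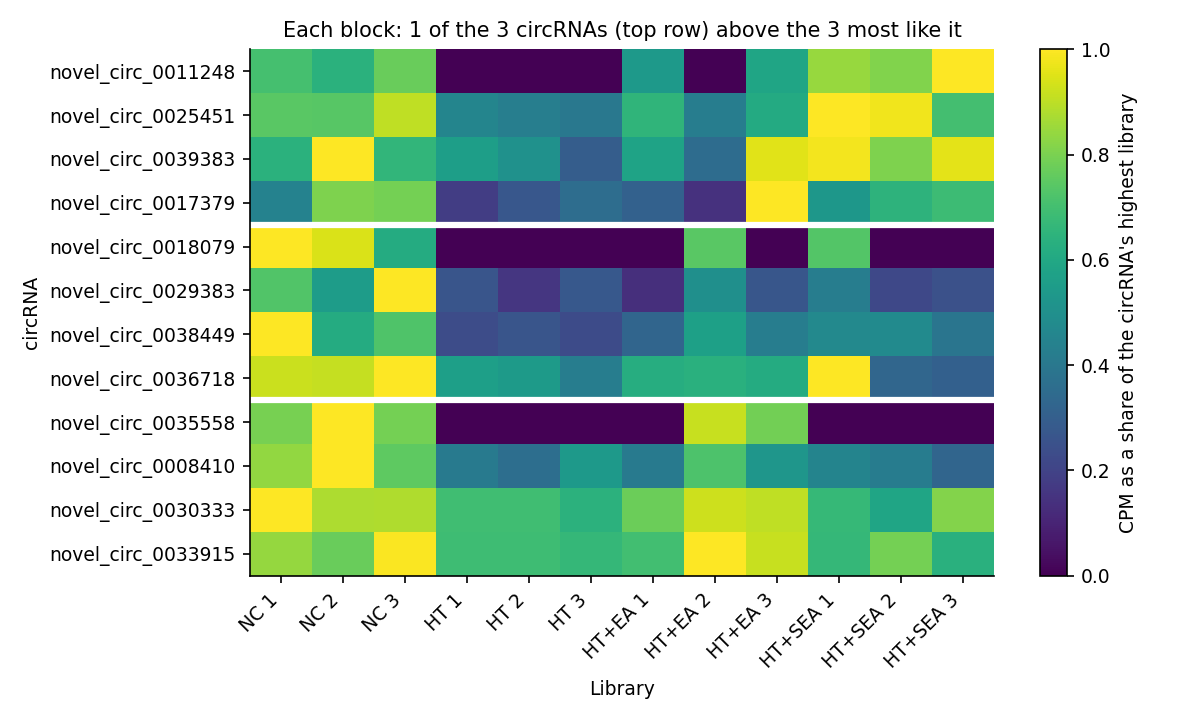
CPM in each of the 12 libraries (columns) as a share of the circRNA's highest library (colour), with each of the 3 circRNAs as the top row of a block above the 3 circRNAs most like it by log2 CPM. The 9 similar circRNAs are above 0 in every library, while the top row of each block is at 0 in HT and in some needled libraries.

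The circRNAs with the nearest identifiers were also looked at, although the running number is not known to follow the genome. Next to novel_circ_0018079, novel_circ_0018080 was listed in all 12 libraries with 7 to 21 counts. Next to novel_circ_0035558, novel_circ_0035557 was listed in all 12 with 2 to 12 counts and novel_circ_0035556 in all 12 with 8 to 42. Next to novel_circ_0011248, no neighbour exceeded 11 counts, and novel_circ_0011242 was listed in 9 libraries, 2 of them HT.

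The mRNAs tied to the 3 circRNAs through these miRNAs amount to 39 gene identifiers, and their levels were not analysed here. Through rno-miR-204-3p, all 3 circRNAs are tied to 14 mRNAs. These include Dhcr7, the enzyme of the last step of cholesterol synthesis, Slc25a22, a mitochondrial glutamate carrier, Slc39a7, a zinc transporter, Dhx58, a cytosolic sensor of viral RNA, Myl9, a myosin light chain, and Lsm4, a splicing factor. Eif2b1, a subunit of the exchange factor for translation initiation, and S100a16, a calcium-binding protein, are reached through both rno-miR-204-3p and rno-miR-331-3p. The others of this miRNA are Elof1, Lims2, Ngef, RGD1559896, Abhd11 and Aifm3.

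Only novel_circ_0011248 is tied to the mRNAs of rno-miR-331-3p, rno-miR-31a-5p and novel_854 among the 3. rno-miR-331-3p leads to 16 mRNAs, among them Nes (nestin, an intermediate filament of neural progenitors), Pabpn1 (a nuclear poly(A)-binding protein), Polr2c (an RNA polymerase II subunit), Slc25a1 (the mitochondrial citrate carrier), Pnp (purine nucleoside phosphorylase) and Plk3 (a stress-response kinase). rno-miR-31a-5p leads to Ttr, the thyroid hormone carrier transthyretin made by the choroid plexus, and Tppp3, a tubulin-binding protein. novel_854 leads to RGD1564664 alone.

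novel_circ_0035558 is tied through rno-miR-3084a-3p to 7 mRNAs, among them Kiss1, which encodes kisspeptin, a hypothalamic peptide that drives reproduction, Msi1, an RNA-binding protein of neural stem cells, Krt8, a keratin, and Crocc, a protein of the ciliary rootlet. novel_circ_0018079 is tied through rno-miR-3587 to Gsto2, a glutathione transferase. The miRNA targets were predicted from sequence in the study and then kept by the direction of change of circRNA, miRNA and mRNA, and the circRNA counts do not test these ties.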

How the data were processed

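Total RNA of the PVN was sequenced from strand-specific libraries, 3 in each of 4 groups. The authors deposited a table of raw counts of 21914 circRNAs, whole numbers without normalisation. Their processing notes name HISAT2, featureCounts and the human builds GRCh38 and hg38, whereas the methods name a rat assembly; the circRNA caller and its read minimum are not given in the sources used here. A further 12 columns of per-sample TPM were not used, because their names match no sample label.

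Counts were tested with edgeR 4.0.16 (TMM, filterByExpr at its settings of 10 counts per library and 15 in total, quasi-likelihood test, all 12 libraries, two-sided) under R 4.3.3, and single circRNAs also with an exact permutation test of CPM, added after the data were seen. The 4838 circRNAs that passed held 85.5% to 88.6% of the counts, and the common biological coefficient of variation was 34.6%. DESeq2 1.42.0, limma 3.58.1 (voom), other scalings and filters, a replicate block and leaving out each library were the alternatives. The fit was tested on simulated data.

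The 3 circRNAs, the lists and the tests were chosen with earlier results of these data known. Named beside them were the 3 circRNAs with the highest Pearson's r of log2 CPM (prior count 2), the node circRNAs at or nearest above 0 in HT, those tied to rno-miR-204-3p, and the network partners as the study names them. Gene symbols are those the study pairs with its 39 identifiers, none of which could be matched in the RefSeq gene table. miRNA sequences are from RefSeq (GRCr8).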

Additional observations from a re-analysis of the deposited data

How the results depend on the processing

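The unadjusted p-values here are those of the fitted models. Every value rests on 3 libraries per group and on counts of 0 whose listing rule is not known, so a 0 cannot be read as absence. In HT+EA against HT+SEA, the number of circRNAs past an unadjusted p of 0.05 was 188 in edgeR, 534 with no filter (294 higher and 240 lower of 21914, 36 adjusted), 356 with a mean count of at least 2 (204 higher and 152 lower of 10258), 119 with DESeq2, and 157 to 212 when 1 library was left out. It was within 1.5 times the first count in 17 of 20 alternatives. For novel_circ_0011248 the unadjusted p fell below 0.05 with no filter (1.93e-05, adjusted p 0.0151), with limma-voom (0.00378) and without HT+EA 2 (0.0167), and ran from 0.0167 to 0.253 when 1 library was left out. For novel_circ_0018079 the sign turned in 4 of 19 alternatives, which were the replicate block (0.998) and leaving out HT+EA 2 (0.0458), HT+SEA 2 (0.756) or HT+SEA 3 (0.744), and the unadjusted p ran from 0.0458 to 0.957 when 1 library was left out. For novel_circ_0035558 the unadjusted p stayed below 0.05 in 18 of 19 alternatives, with limma-voom as the exception (0.341), and ran from 2.36e-06 to 0.00801 when 1 library was left out. Its adjusted p ran from 6.65e-11 (no filter) to 1 over the alternatives, that of novel_circ_0011248 from 0.0151 to 1 and that of novel_circ_0018079 from 0.998 to 1. The cause of these shifts was not tested. With only the 6 libraries of HT+EA and HT+SEA, novel_circ_0018079 and novel_circ_0035558 did not pass the filter and have no value. Their values in the other fits, like those of novel_circ_0011248, rest in part on NC and HT libraries, which chose all 3. No difference is read from these values. Mean CPM hardly moved with the scaling, but the means of groups with a 0 rested on single libraries: novel_circ_0018079 went from 47.8 to 0 CPM in HT+EA without HT+EA 2 and from 46.9 to 0 CPM in HT+SEA without HT+SEA 1, novel_circ_0011248 ran from 203 to 425 CPM in HT+EA and novel_circ_0035558 from 95.2 to 206 CPM in HT+EA when 1 library was left out.

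The replicate numbers did not pair the samples: of 18 same-numbered pairs across groups, the deviations from the group means correlated at -0.0883 to 0.104, with 1 pair above 0.1, and 1 of 12 libraries correlated best with its own number. With the replicate block 163 circRNAs passed unadjusted, and the p-values were 0.125 for novel_circ_0011248, 0.998 for novel_circ_0018079 and 0.00805 for novel_circ_0035558.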
